A study of Drosophila melanogaster with 2 samples.

Results

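A set of 10 heat shock and chaperone genes was followed across the binding map of CG10366 in Drosophila embryos. They are Hsp22, Hsp23, Hsp26, Hsp27, Hsp67Ba, Hsp68, Hsp83, Hsc70-4, DnaJ-1 and Hsf, 10 of 13986 annotated protein-coding genes. They were found by gene name in the Ensembl annotation of the dm6 assembly (BDGP6), and a peak was tied to a gene when its summit lay inside the gene's span or within 1000 bp of it. The material was whole embryos, 0 to 24 h old, from flies with a transgene for a CG10366-eGFP fusion protein. Chromatin bound by the fusion was pulled down with anti-GFP antibody and sequenced (ChIP-seq) in 2 libraries, labelled as biological replicates 1 and 2. Both libraries carry the fusion protein and form 1 group, so no comparison between sample groups was made, and control libraries were not analysed here. The age window spans the whole of embryogenesis and every tissue, so a peak is an average over stages and cell types.

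Heat shock proteins are molecular chaperones that hold or refold unfolded proteins. Small heat shock proteins hold unfolding clients without ATP, the Hsp70 and Hsp90 families fold them with ATP, and J-domain proteins hand clients to Hsp70. On heat stress the heat shock factor Hsf forms trimers. These bind heat shock elements, arrays of GAA units in alternating orientation, upstream of heat-inducible genes. In Drosophila the small heat shock genes are also switched on during normal development, without heat, and Hsp83 and Hsc70-4 are transcribed at high levels in unstressed cells.

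CG10366 peaks stood at 6 of the 10 genes: Hsp22, Hsp26, Hsp27, Hsp67Ba, Hsp83 and Hsc70-4. The only peak in reach of Hsp67Ba was that of Hsp26. Hsp68 and DnaJ-1 had only weak candidates that missed the authors' threshold, and Hsp23 and Hsf had none in any list. Hsp27 had the strongest peak of the group, with a signal of 485 in replicate 1 and 332 in replicate 2. The signal is the authors' own value for a peak, and it was used only to rank or describe peaks within a list. A passing peak is one in the authors' thresholded list, which keeps candidates with an irreproducible discovery rate (IDR) of 0.01 or less. The IDR measures how poorly a peak's rank is matched between rankings of the same candidates. Each replicate's own list has an IDR too. A passing peak is therefore not in itself one matched between the 2 libraries.

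Of the summits at these genes, 4 lay outside transcripts or in an intron, and their sequences are shown because they are the places where the fusion protein was found at these genes. Each run is the 50 bp to either side of the series-wide summit, read 5′ to 3′ on the strand of the gene, in dm6 coordinates, from the RefSeq copy of the genome. Capitals mark matches to the heat shock element pair GAANNTTC, a pair of GAA units facing each other. The Hsp27 window is chr3L:9383856-9383956 on the plus strand, the Hsp83 intron window is chr3L:3194220-3194320 on the plus strand, the Hsp26 window is chr3L:9377496-9377596 on the minus strand, and the Hsc70-4 window is chr3R:15242452-15242552 on the plus strand.
Hsp27: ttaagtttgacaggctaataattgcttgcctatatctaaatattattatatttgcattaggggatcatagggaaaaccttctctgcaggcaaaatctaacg
Hsp83 intron: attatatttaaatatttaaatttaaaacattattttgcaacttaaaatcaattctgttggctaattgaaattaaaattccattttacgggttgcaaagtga
Hsp26: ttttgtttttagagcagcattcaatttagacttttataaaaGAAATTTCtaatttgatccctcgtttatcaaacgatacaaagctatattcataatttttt
Hsc70-4: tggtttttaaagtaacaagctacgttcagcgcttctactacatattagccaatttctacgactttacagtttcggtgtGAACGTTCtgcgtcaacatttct
The Hsp26 and Hsc70-4 windows each hold 1 such pair, and the Hsp27 and Hsp83 intron windows hold none. The Hsp83 intron window opens with an unbroken run of 27 A and T bases, and the longest such run in the Hsp27 window is 17 bases.

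In the series-wide list, which rests on both libraries, 6 of the 10 genes had a passing summit within 1000 bp of the span, where the share over all protein-coding genes was 29.6%. Gene length bears on such a count, and the median span was 2097.5 bp for the 10 genes and 2162.5 bp for all genes. Among the 10052 genes no longer than the longest of the 10, the share was 22.6%. Within 500 bp of an annotated start site, 5 of the 10 genes had a passing summit, beside 19.4% of all genes. At the looser level of ranked candidates, 8 of the 10 genes had one, beside 66.9%. The members were chosen with earlier results of these data known, so these counts were given no test.

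The replicates gave the same 6 genes. In the list of replicate 1 they were 6 of 10, beside 28.5% of all genes, and in that of replicate 2 again 6 of 10, beside 23.3%. All 6 passed in both replicate lists, which 21.1% of all genes did. These lists share no library, but the thresholds were set by the authors on each replicate separately and the depth of neither library is known.

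**Figure D1:**
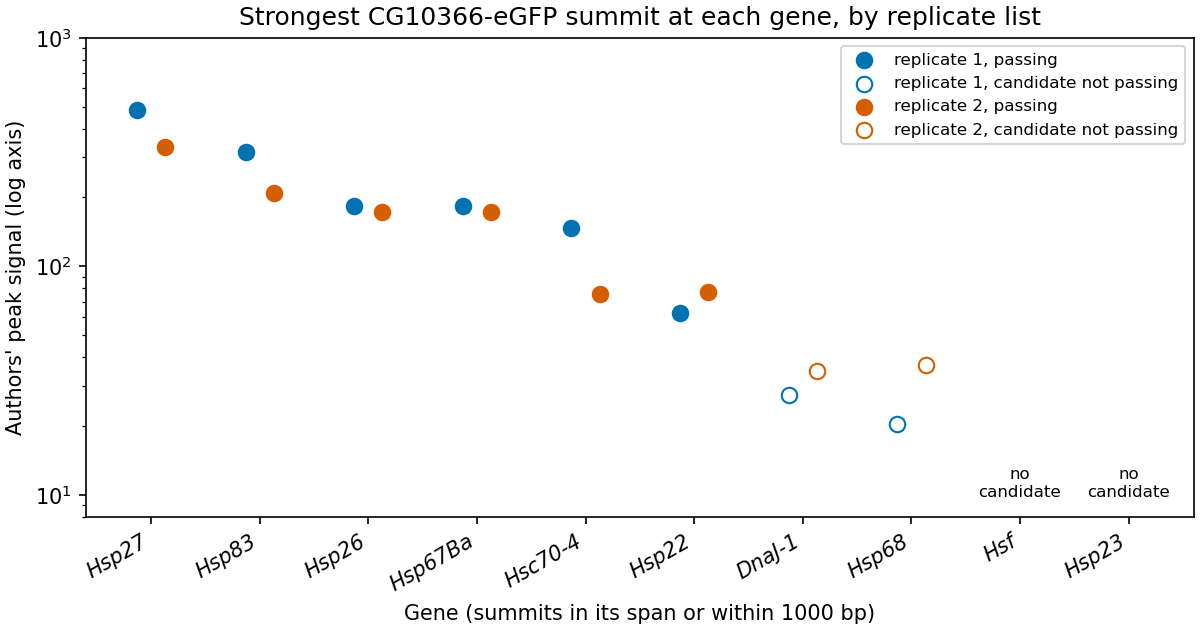
Signal of the strongest summit in reach of each gene (log axis), with the list of replicate 1 in blue and that of replicate 2 in orange. Filled points are passing summits and open points are candidates that missed the threshold. Hsp27 is highest in both lists at 485 and 332, Hsp26 and Hsp67Ba share 1 summit, the 2 open points of Hsp68 are different summits, and Hsf and Hsp23 have no candidate.

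The 6 genes held 6 distinct summits, since Hsp83 had 2 and Hsp26 and Hsp67Ba shared 1. The median signal of these summits in the series-wide list was 334, and that of all 5153 passing peaks was 142. Of the 6, 5 stood above the list's median, and 4 were among its top 1000 peaks (66.7%, beside 19.4% of the list). With 6 summits, these figures describe the genes and are not a test.

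The small heat shock genes Hsp22, Hsp26, Hsp67Ba, Hsp23 and Hsp27 lie together on chromosome arm 3L (dm6 9372931 to 9385694, 12764 bp, within the cluster at cytological position 67B). Passing summits numbered 3 there in each of the series-wide, conservative, replicate 1 and replicate 2 lists. They stood at Hsp22, between Hsp26 and Hsp67Ba, and upstream of Hsp27.

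Hsp27 (FBgn0001226, 3L 9384063 to 9385694, plus strand) encodes a small heat shock protein found in the nucleus. Its peak covered 9383790 to 9384023, in intergenic sequence, with the summit 157 bp upstream of the start site. The signal was 485 in replicate 1 (rank 133 of 4876) and 332 in replicate 2 (rank 153 of 3378). The summits called in the replicates fell on the same base. In the series-wide list the signal of 818 ranked 141 of 5153, above 97.3% of the list and 5.77 times its median. Over the series-wide, conservative and replicate lists, the genes outside the chaperone lists with the most similar signals were Stt3A and bves, which share 1 summit, and CG1607. Stt3A and bves had 808 in the series-wide list, 472 in replicate 1 and 330 in replicate 2, and CG1607 had 806, 472 and 330. The likeness was the summed absolute difference in log10 signal over 4 lists among 2919 genes, 0.0248 for the first pair and 0.0264 for CG1607.

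Hsp26 (FBgn0001225, 3L 9376418 to 9377427, minus strand) encodes a cytosolic small heat shock protein. Its peak at 9377461 to 9377637 had a signal of 183 in replicate 1 (rank 823) and 173 in replicate 2 (rank 511), with the replicate summits 30 bp apart. In the series-wide list it had 350 and rank 676. The summit lay 119 bp upstream of the nearer annotated start site and 171 bp upstream of the other. The same summit is the only passing one in reach of Hsp67Ba (FBgn0001227, 3L 9377802 to 9379534, minus strand), another small heat shock gene. It stood 256 bp past the 3′ end of Hsp67Ba and 1988 bp from its start site, so Hsp67Ba counts as reached through its neighbour and had no passing summit at its own promoter. At that promoter the ranked lists held weak candidates, of 19.7 at 96 bp upstream in replicate 1 and 25.8 at 499 bp upstream in replicate 2.

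Hsp22 (FBgn0001223, 3L 9372931 to 9374964, plus strand) encodes a small heat shock protein of mitochondria. It had the weakest of the 6 summits, with 62.1 in replicate 1 (rank 3518 of 4876) and 77.2 in replicate 2 (rank 1905 of 3378). The replicate summits were 114 bp apart, the widest spacing of the 6. In the series-wide list its signal of 139 ranked 2640, just under the median of the list (0.981 times it). The summit lay 433 bp upstream of the second annotated start site and 633 bp past the first, in exonic sequence that is 5′ UTR of Hsp22 and 3′ UTR of CG4456, another small heat shock gene of the cluster (Hsp67Bb). In replicate 1 it moved 108 bp to lower coordinates and so left the 500 bp window around a start site.

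Hsp23 (FBgn0001224, 3L 9381882 to 9382765, plus strand), a cytosolic small heat shock gene that lies between Hsp67Ba and Hsp27, had no candidate in any of the 8 lists. The nearest passing summit was that of Hsp27, 1141 bp past its 3′ end. A gene with no candidate in any list was not rare: there were 2 among the 10 (Hsp23 and Hsf) and 1226 among all protein-coding genes (8.77%), or 11.1% of those no longer than the longest of the 10. A further 2 candidates that missed the threshold completed the cluster in the series-wide list, at 45.2 in the coding sequence of Hsp26 and 37.2 in the 3′ UTR of Hsp27.

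**Figure D2:**
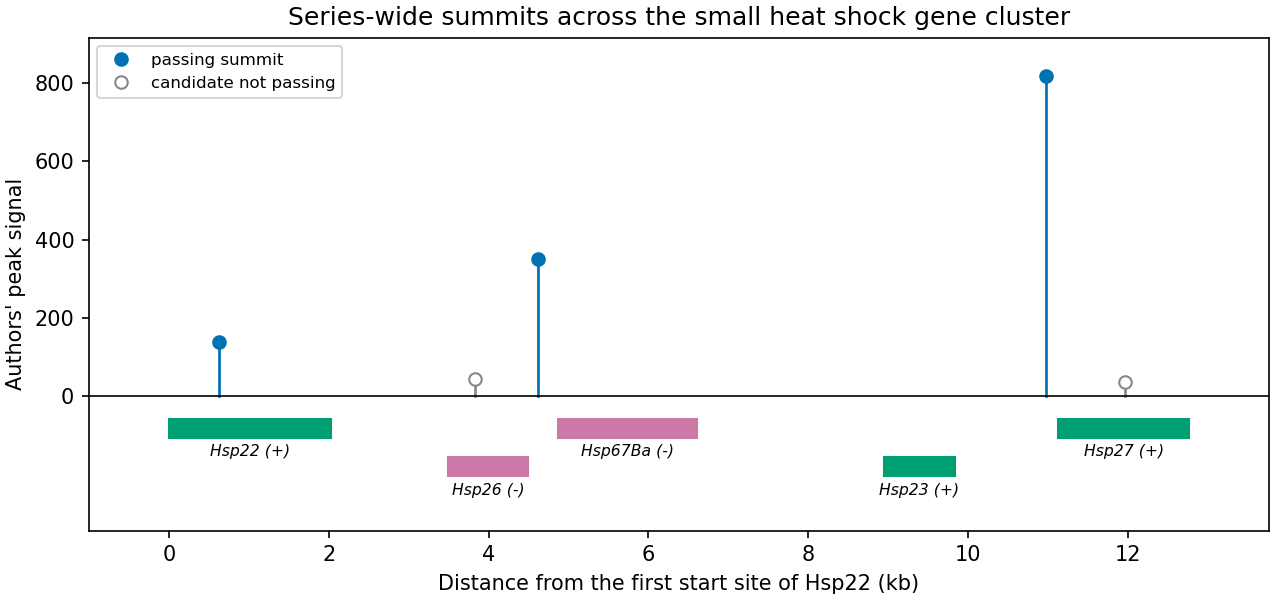
Series-wide summits across the small heat shock gene cluster, with the authors' signal on the vertical axis and distance from the first start site of Hsp22 in kb on the horizontal axis. Filled points are the 3 passing summits (139, 350 and 818), open points are the 2 candidates that missed the threshold, bars are the 5 genes with strand in brackets, and other genes are not drawn. Hsp23 has no point over it.

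Among the ATP-dependent chaperones, Hsp83 (FBgn0001233, 3L 3192969 to 3197059, plus strand), which encodes the cytosolic Hsp90 protein, was the only one of the 10 genes with 2 passing summits. The stronger one (3194160 to 3194372) lay in an intron, 1301 bp past the first start site and 1054 bp past the second. Its signal was 315 in replicate 1 (rank 322) and 209 in replicate 2 (rank 361), and 522 in the series-wide list (rank 339, above 93.4% of peaks). The other (3193018 to 3193185) lay in the 5′ UTR, 120 bp past the first start site and 127 bp upstream of the second. It had 152 in replicate 1 (rank 1150), 170 in replicate 2 (rank 530) and 318 in the series-wide list (rank 802). The intron summit was therefore the higher of the pair in both replicates. Its replicate summits were 10 bp apart, and those of the start-site summit 13 bp.

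Hsc70-4 (FBgn0266599, 3R 15242687 to 15246614, plus strand) encodes the main constitutive cytosolic Hsp70 protein. Its peak (15242337 to 15242666) had its summit 185 bp upstream of the first of 6 annotated start sites. It lay in the 451 bp between that start and the start of tefu, the ATM kinase gene, which runs the other way, so the summit is upstream of both genes. The signal was 147 in replicate 1 (rank 1195 of 4876) and 75.4 in replicate 2 (rank 1984 of 3378), and the replicate summits were 48 bp apart. The peak stood above 75.5% of the list in replicate 1 and 41.3% in replicate 2, the largest gap between replicates among the 6. In the series-wide list it had 227 and rank 1366.

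The order of the 6 summits by signal did not hold throughout between replicates. In replicate 1 Hsc70-4 (147) was above Hsp22 (62.1), and in replicate 2 it was just below it (75.4 for Hsc70-4, 77.2 for Hsp22). The Hsp26 summit (183 and 173) and the Hsp83 start-site summit (152 and 170) were close in replicate 2. Hsp27 and the Hsp83 intron summit held the first places in both replicates. The median distance between replicate summits was 21.5 bp over the 6, ranging from 0 to 114 bp, and 15 bp over the 2985 series-wide peaks met in both replicates (quartiles 6 and 33 bp).

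The highest candidate of the 10 genes to miss the threshold lay 4737 bp past the first start site of Hsp83, beyond its 3′ end, with a signal of 66.2 and a −log10 IDR of 1.77. The lowest of theirs that passed was the Hsp22 summit at 139, with a −log10 IDR of 4.21. In the whole series-wide list, passing signals went down to 2.01, so signal alone did not decide which candidates passed. Over the 10 genes, 11 distinct series-wide candidates missed the threshold, with signals of 18.7 to 66.2 and a median of 42.2. All 28865 series-wide candidates outside the thresholded list had a median of 38.5.

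DnaJ-1 (FBgn0263106, 3L 5750029 to 5752189, minus strand), which encodes a J-domain partner of Hsp70, had 4 of those candidates. The highest lay 52 bp past the start site in the 5′ UTR. Its signal was 59.3 in the series-wide list. Its −log10 IDR was 0.295 there and 1.38 in the conservative ranked list, both under the threshold of 2. The candidates near it had 27.4 in replicate 1 and 34.6 in replicate 2, 87 and 83 bp past the start. They passed in neither replicate. The nearest passing summit was 19017 bp from the gene, at scny.

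Hsp68 (FBgn0001230, 3R 24055080 to 24057310, minus strand), a heat-inducible gene of the Hsp70 family, had 1 series-wide candidate, in its coding sequence 1553 bp past the start, with a signal of 42.2. Near it were candidates of 20.5 in replicate 1 and 25.1 in replicate 2. Replicate 2 also had weak candidates upstream, of 23.7 at 203 bp and 36.9 at 891 bp before the start, which replicate 1 did not list. The start of SMC1, which runs the other way, lies 977 bp from that of Hsp68. The candidate at 891 bp is therefore nearer to the start of SMC1. The nearest passing summit was 4110 bp away, near Pisd.

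The last of the 10, Hsf (FBgn0001222, 2R 18130303 to 18134634, minus strand), the gene of the heat shock factor itself, had no candidate in any list, and the nearest passing summit was 4482 bp away, at stau.

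**Figure D3:**
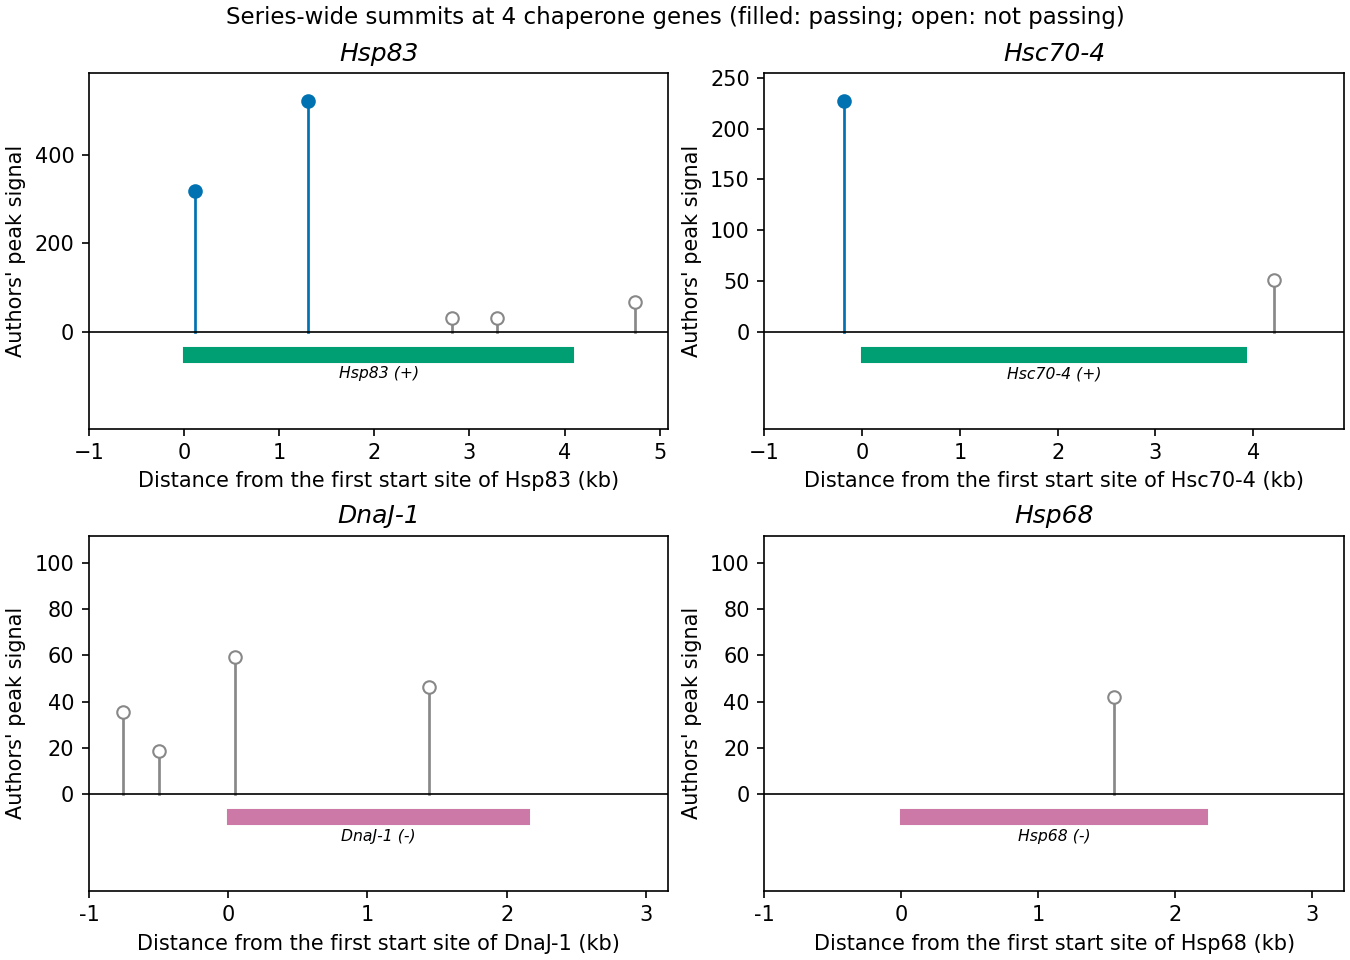
Series-wide summits at Hsp83, Hsc70-4, DnaJ-1 and Hsp68, with the authors' signal on the vertical axis and the distance from the first start site in kb on the horizontal axis, in the direction of transcription. Vertical scales differ between panels. Filled points are passing summits (318 and 522 at Hsp83, 227 at Hsc70-4) and open points are candidates that missed the threshold, which are the only ones at DnaJ-1 and Hsp68.

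GC content was lower on average at the passing summits of these genes than at their own weak candidates, and the ranges overlapped. Within 50 bp of the 6 passing summits GC content averaged 31.7% (SD 9.78, n = 6 windows), and at the 11 candidates that missed the threshold it averaged 47.6% (SD 12.4, n = 11). Over the whole list the values were 34.5% at passing summits (SD 9.71, n = 5140) and 46.0% at the other candidates (SD 10.3, n = 28551). Among the 11 candidates, those in coding sequence ranged from 52.5% to 63.4%, and those outside annotated genes from 29.7% to 44.6%. None of the 6 passing summits lay in coding sequence, so position and passing were not told apart here. The mean of the 6 was within 1 SD of the mean of all passing summits, and 3 of the 6 single values were not, those of the Hsp83 intron, Hsp26 and the Hsp83 start. The Hsp83 intron summit was lowest at 20.8%, followed by Hsp26 at 23.8%, Hsp22 at 26.7%, Hsp27 at 33.7% and Hsc70-4 at 38.6%. The Hsp83 start-site summit, at 46.5%, was near the mean of candidates that missed the threshold. The longest unbroken run of A and T bases had a median of 10.5 bp at the 6 summits, 10 bp at all passing summits and 7 bp at the other candidates. It was 27 bp at the Hsp83 intron, 17 bp at Hsp27, 11 bp at Hsp22, 10 bp at Hsp26, 9 bp at the Hsp83 start and 8 bp at Hsc70-4. The strongest 2 summits thus had the longest runs. The only 6-base word held by at least 4 of the 6 windows was AATTAT (or ATAATT on the other strand), which 20.2% of all passing windows held.

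**Figure D4:**
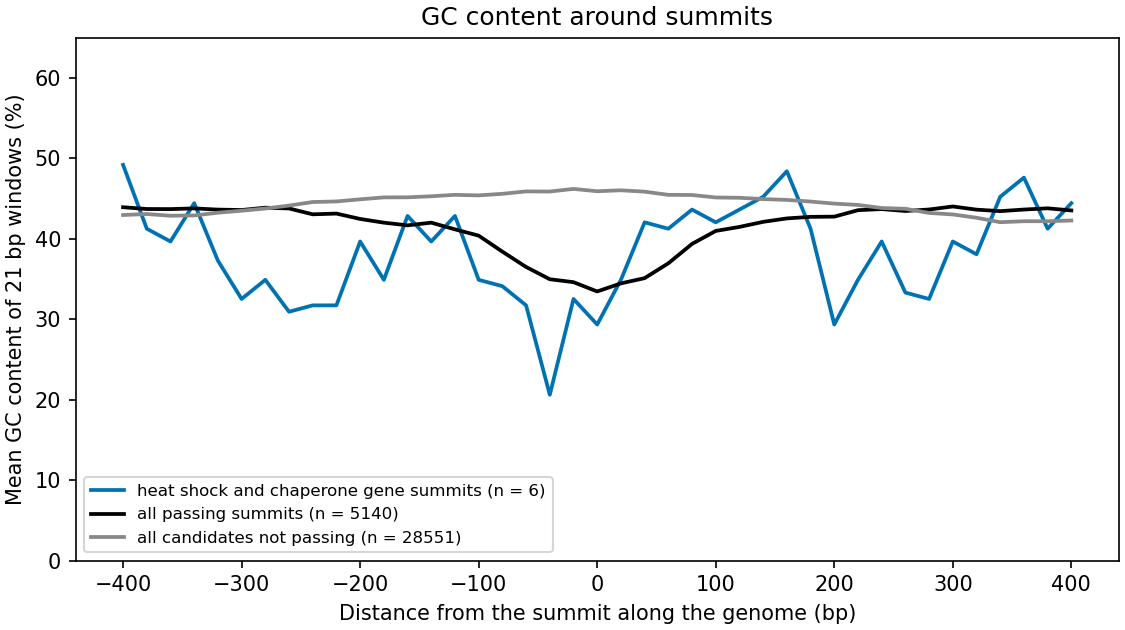
Mean GC content in percent of 21 bp windows by distance from the summit in bp along the genome, for the 6 summits at the heat shock and chaperone genes (blue), all passing summits (black) and all candidates that missed the threshold (grey). The blue line rests on 6 windows and is uneven, at the summit it is 29.4% against 33.5% for the black line, and 40 bp past it 42.1% against 35.1%.

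Heat shock elements were then sought at the summits and promoters, on both strands. The pair GAANNTTC lay within 100 bp of 3 of the 6 summits, those of Hsp26, Hsc70-4 and the Hsp83 start, and within 100 bp of 5.72% of 5140 passing summits. The opposite pair TTCNNGAA lay at 1 of the 6, Hsp26, and at 4.82% of all. The longer element of 3 alternating units, which contains both pairs in overlap, lay at 0 of the 6 and at 0.214% of all. The strongest summits, those of Hsp27 and the Hsp83 intron, held none of these within 100 bp. Within 200 bp each held 1 match to GAANNTTC, which was then found at 5 of the 6 summits and at 10.3% of all. Of other motifs, GAGAG, the GAGA element, which overlaps itself in longer repeats, was at 2 of the 6 (6 matches at Hsp26 and 1 at Hsp22) and at 22.0% of all. The TATA box TATAAA was at 1 and at 35.2%, and the BEAF-32 box CGATA was at 1 and at 27.5%. Neither the DNA replication-related element TATCGATA, which contains CGATA, nor the CTCF core AGNNGGCGC was at any of the 6, and they lay at 3.35% and 3.15% of all passing summits. A match describes letters in a window and not a bound site. The genes were chosen as heat shock and chaperone genes, whose promoters often hold these pairs (below). The share over all passing summits therefore cannot show whether the pairs go with the peaks.

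Promoters were searched for the same letters. From 250 bp before to 50 bp after any annotated start, GAANNTTC was found at 7 of the 10 genes (Hsp22, Hsp23, Hsp26, Hsp68, Hsp83, Hsc70-4 and DnaJ-1) and at 11.97% of 13945 protein-coding genes. Of the 5 genes with a passing summit within 500 bp of a start site, 4 had this pair, and of the other 5 genes 3 had it. TTCNNGAA was found at 4 of the 10 (Hsp23, Hsp26, Hsp68 and Hsc70-4) and at 9.96% of genes, and the element of 3 units at 2 of the 10 (Hsp68 and Hsc70-4) and at 0.567%. Genes with several start sites, such as Hsc70-4, had more windows to search. Hsp27 had none of these letters in that window, the match within 200 bp of its summit lying outside it. Hsp68 had 4 matches to GAANNTTC, 2 to TTCNNGAA and 3 to the longer element, and no passing peak. The 3 matches to the longer element overlap each other in a run of alternating units, so they are not separate elements. GAGAG was found at 4 of the 10 and at 36.3% of genes, TATAAA at 8 and at 51.2%, CGATA at 7 and at 53.0%, and TATCGATA at 2 (Hsp83 and DnaJ-1) and at 10.2%. AGNNGGCGC was at 0 and at 3.86%.

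The Hsp68 promoter is shown because it is the one among the 10 with the most heat shock pairs and had no passing summit. The run is the 250 bp before the start site, chr3R:24057311-24057560 on the minus strand of dm6, from the RefSeq copy of the genome. Capitals mark matches to GAANNTTC and TTCNNGAA, which overlap in the first block and lie from 182 to 46 bp before the start.
Hsp68 promoter: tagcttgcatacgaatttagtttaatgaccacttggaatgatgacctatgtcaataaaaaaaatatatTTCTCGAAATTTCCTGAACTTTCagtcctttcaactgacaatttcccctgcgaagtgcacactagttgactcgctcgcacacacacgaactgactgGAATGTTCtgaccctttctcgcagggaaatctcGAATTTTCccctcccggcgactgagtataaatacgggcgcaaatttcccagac
The weak replicate 2 candidate at 203 bp before the start lies within this stretch, and replicate 1 listed none there.

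Beyond these 10 genes, 50 other chaperone and heat shock response genes were read by the same rule, and 17 had a passing summit (34.0%, beside 29.6% of all protein-coding genes), with a median span of 2492.5 bp. In the list of replicate 2 the count was 12 of 50, beside 23.3% of all genes. The counts of the smaller lists below stand beside the same 29.6%. J-domain and exchange factor genes had 7 of 8, but they are long, with a median span of 6169.5 bp, and the count was 4 of 8 in replicate 2. The strongest there were mrj (707), Tpr2 (455) and stv (280), which encodes the co-chaperone starvin. Genes of the Hsp90 family and its co-chaperones had 5 of 10: Stip1 had 296, Gp93 of the endoplasmic reticulum 212 and Trap1 of mitochondria 204. The Stip1 and Trap1 summits were nearest to the starts of Pi3K21B and Vha16-1. Chaperonin genes had 2 of 12, CCT8 (218, nearest to CG30349) and Hsp60A (134). The other Hsp70 family genes had 1 of 11, the mitochondrial Hsc70-5 (223). Of those 11, 6 are the near-identical copies described below, where a missing candidate is uncertain. The same 6 count among the 50 genes. The other small heat shock genes had 1 of 7, CG4456, through the summit described at Hsp22. Of 2 other heat shock response genes, CG5446 (Hsbp1) had a summit of 91.2, nearest to Trm1, and no summit in either replicate's thresholded list. The strongest ranked candidates in its reach had 38.9 in replicate 1 and 46.8 in replicate 2.

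The 6 near-identical heat-inducible Hsp70 copies at 87A and 87C had no candidate in the series-wide or replicate 1 list, and 2 had one in the ranked list of replicate 2. Reads from such copies cannot be placed with certainty, and how the authors treated them is not given in the sources used here. A value of no candidate at these copies is therefore uncertain.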

How the data were processed

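Whole embryos of 1 group were profiled by anti-GFP ChIP-seq in 2 libraries, with chromatin sonicated to 200 to 800 bp per the labels. The authors deposited ranked and thresholded peak lists on dm6 for each replicate and, from both libraries, series-wide and conservative lists, 8 in all. Each deposited peak has a signal, a score of at most 1000, a summit offset and, in the ranked lists, the −log10 of its IDR. Comparison of the deposited lists showed that thresholded peaks have a −log10 IDR of at least 2, and that 148 series-wide candidates at that level were left out. The sources used here do not name the aligner, the peak caller or their versions. The lists hold no read totals, so depth is unknown. Controls, reads and signal tracks were not used here.

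Summits were joined to Ensembl release 115 genes (BDGP6.54, without transposable elements) and RefSeq sequence of the same assembly with Python 3.11.15, pandas 2.3.3 and numpy 2.4.6. Coordinates are 1-based. The rule tying a summit to a gene's window was checked on simulated summits at known distances. That check repeats the rule itself and did not cover the shares over all genes. All 10 genes were described, with the nearest gene to each summit, up to 3 strongest genes of each further list and the 3 genes most like the strongest. The members and lists were chosen with earlier results of these data known. No test was made. Alternatives were other lists, thresholds, windows and flanks.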

Additional observations from a re-analysis of the deposited data

How the results depend on the processing

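The same 6 genes had a passing summit in the conservative list, in each replicate's own list and at an IDR of 0.001 or less. The conservative list holds the same summits with the same signals, so it is not a separate check. The count of genes with a passing summit within 500 bp of a start site, 5 as reported, was 4 in replicate 1's list. It was also 4 within 250 bp of a start site. The flank decided more. With no flank, 2 genes (Hsp22 and Hsp83) and 3 distinct summits were left, with a median signal of 318, and 2 genes passed in both replicates, since the other summits lay just outside their genes. With 2000 bp, Hsp23 was added through the Hsp27 summit, giving 7. Without 1 replicate, read from the other's own list, the median signal was 168 to 171, where the lists' own medians were 85.5 and 83.8, and these are different scales. GC content at the 6 summits was 31.0% with 25 bp and 34.7% with 100 bp to either side. With 200 bp the pair GAANNTTC was met at 5 summits (10.3% of all passing summits), TATAAA at 4 (50.1%) and CGATA at 2 (44.5%), and with 50 bp TTCNNGAA and GAGAG were met at 0 (2.53% and 8.79%). Of 57 alternatives, 44 stayed within the limit of 1.5 times or the replicate spread.

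No paired analysis was possible because the replicates form 1 group and no test was made. With 6 summits and 2 libraries of unknown depth, a missing peak is not evidence that the protein is absent.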

Other observations

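The gene of the heat shock RNA omega (lncRNA:Hsromega, FBgn0001234, 3R 21296127 to 21317836), a non-coding gene strongly induced by heat, had a candidate that met the threshold value and was in no thresholded list. Its summit at 21296320, 193 bp past the start site, had a signal of 157 and a −log10 IDR of 4.02 in the series-wide ranked list, above the Hsp22 summit in signal. In replicate 1 the candidate had 82.1 and a −log10 IDR of 4.43, and in replicate 2 it had 78.4 and 3.14. In the conservative ranked list its −log10 IDR was 1.63, under the threshold of 2. It is 1 of the 148 series-wide candidates at that level that the authors' thresholded list does not hold, and none of those stood at the 10 genes. The deposited descriptions name 1 input file more for the thresholded than for the ranked lists, and what that file holds is not given in the sources used here. Whether it removed this candidate was not tested. GC content at the summit was 32.7%.

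The strongest peaks were mostly narrow. Among the 6 heat shock and chaperone gene peaks, 4 were narrower than the list's median width of 330 bp, beside 28.3% of all passing peaks. In the whole list, 95.1% of the top 1000 peaks by signal were narrower than that, against 12.2% of the others. The 4 narrow ones are the 4 strongest of the 6, and Hsc70-4 and Hsp22 had 330 bp. Among those 4, width ran the other way: Hsp27 was 234 bp wide, the Hsp83 intron peak 213 bp, Hsp26 177 bp and the Hsp83 start-site peak 168 bp. The series-wide candidates at the 10 genes that missed the threshold were also 330 bp wide. The median is thus a width that candidates share, and whether the authors' processing set it was not tested.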
